A study of Mus musculus with 11 samples.

Results

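The genes described here are a20, IkBa, nfkb2, IrakM and duba, which restrain or relay signaling through the transcription factor NF-kB or remove ubiquitin from signaling proteins. They are 5 of the 93 genes of a NanoString nCounter panel, and they were chosen by name with their measured values in all 11 spleens already known. Their levels are therefore a description of these mice and not a test of the choice. RNA of spleens from 11 female mice was hybridized to a custom probe set, at 50 ng per mouse, and probes were counted without amplification. The WT/Mrl group (3 mice) and the cGAS/Mrl group (4 mice) are of the lupus-prone MRL strain, which per the study's methods carries the Fas lpr mutation in both groups, and the cGAS/Mrl mice also carry a CRISPR/Cas9 deletion in the DNA sensor gene cGAS. The sample labels write neither Fas lpr nor KO for these mice. The B6 mice are of the C57BL/6 strain, with 1 WT/B6 mouse, 1 cGAS KO/B6 mouse and 2 WT/B6 mice given DMXAA by injection. DMXAA is an agonist of mouse STING, the adaptor downstream of cGAS. Dose and time of the injection and the ages of the mice are not given in the labels. cGAS and STING are not on the panel, so these values cannot show the deletion. None of the marker genes looked for on the panel, for B cells, T cells, myeloid cells, neutrophils, red cells or plasmacytoid dendritic cells, was there (0 of each list), so the labelled tissue could not be checked. The labels name spleen, while the study's text speaks of total splenocytes, and which of them gave the RNA is not settled here.

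NF-kB dimers are held in the cytoplasm by inhibitor proteins until a receptor or sensor signal leads to the inhibitor's destruction. Among the genes that NF-kB then switches on are those of its own inhibitors, which closes a feedback loop, and STING signaling can feed into NF-kB as well as into the interferon pathway. IkBa, the protein of Nfkbia, is the classic inhibitor. a20, the protein of Tnfaip3, edits ubiquitin chains on signaling proteins, and loss of its function is linked to autoimmune disease. nfkb2 encodes p100, which acts as an inhibitor and is the precursor of the p52 subunit. IrakM, the protein of Irak3, dampens Toll-like receptor signaling, mainly in myeloid cells. duba, the protein of Otud5, is a deubiquitinase that restrains the production of type I interferon.

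The total count over the panel differed widely between mice. The total of the counts recovered from the deposited signal was 28406 to 58404 in the 7 Mrl mice, 3612 in the WT/B6 mouse, 12386 in the cGAS KO/B6 mouse, and 647148 and 600677 in the DMXAA mice. The median over the panel was 21 counts in the WT/B6 mouse and 36 in the cGAS KO/B6 mouse. The authors' factor was 0.0823 and 0.297 in these mice, 0.670 to 1.36 in the Mrl mice, and 1.61 and 1.64 in the DMXAA mice, so it was lowest where the counts were lowest. Whether the low totals reflect the assay or expression was not tested, and centring removes a shift shared by the panel in either case. Each level below is a gene's signal divided by the panel median of the same mouse, so that the authors' factor for the mouse cancels. Since probes differ in efficiency, levels and ratios are compared between mice and not between genes. All 5 genes had a mean count of at least 20.

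Of the inhibitors, a20 stood at 3.75, 4.08 and 3.33 times the panel median in the WT/Mrl mice and at 3.37, 3.83, 3.87 and 3.56 times in the cGAS/Mrl mice. It stood at 1.62 times in the WT/B6 mouse, 7.22 times in the cGAS KO/B6 mouse, and 10.99 and 8.87 times in the DMXAA mice. Both DMXAA mice were above the other 9, the Mrl groups overlapped, and the WT/B6 mouse was lowest. The WT/B6 value rests on 34 counts, against 7485 and 5365 counts in the DMXAA mice.

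IkBa followed the same order of groups. It stood at 3.25, 3.77 and 2.99 times the panel median in the WT/Mrl mice and at 2.68, 3.41, 3.14 and 3.09 times in the cGAS/Mrl mice. The level was 1.86 in the WT/B6 mouse (39 counts), 6.28 in the cGAS KO/B6 mouse, and 6.61 and 7.17 in the DMXAA mice. The cGAS KO/B6 mouse lay close below the DMXAA mice, and the Mrl groups again overlapped.

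nfkb2 was ordered differently, but only as to the DMXAA mice. It stood at 8.25, 8.05 and 7.68 times the panel median in the WT/Mrl mice and at 5.45, 7.91, 9.32 and 7.68 times in the cGAS/Mrl mice. The level was 5.33 in the WT/B6 mouse, 15.7 in the cGAS KO/B6 mouse, and 1.00 and 1.01 in the DMXAA mice. The DMXAA mice were lowest, at the panel median itself, and cGAS/Mrl mouse 1 lay close to the WT/B6 mouse.

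IrakM stood at 0.453, 0.506 and 0.527 times the panel median in the WT/Mrl mice and at 0.336, 0.673, 0.822 and 0.473 times in the cGAS/Mrl mice. The level was 1.05 in the WT/B6 mouse, 0.806 in the cGAS KO/B6 mouse, and 0.153 and 0.119 in the DMXAA mice. The cGAS/Mrl mice spanned the whole WT/Mrl range, and the DMXAA mice were lowest. By rank among the 93 genes, however, IrakM was at 65 and 69 in the DMXAA mice, next to 54 to 67 in the Mrl mice. Its counts were 22 and 29 in the uninjected B6 mice, where a few counts move the level.

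duba, the deubiquitinase, stood at 11.6, 12.9 and 14.7 times the panel median in the WT/Mrl mice and at 11.5, 9.69, 11.5 and 10.6 times in the cGAS/Mrl mice. The level was 2.81 in the WT/B6 mouse (59 counts), 20.5 in the cGAS KO/B6 mouse, and 0.944 and 1.01 in the DMXAA mice. On this scale every cGAS/Mrl mouse was below every WT/Mrl mouse, by a small margin at the nearest pair, and the groups overlapped under other scalings, such as median-of-ratios and uncentred counts. duba ranked 5 to 9 among the 93 genes in the Mrl mice and 48 and 46 in the DMXAA mice.

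**Figure D1:**
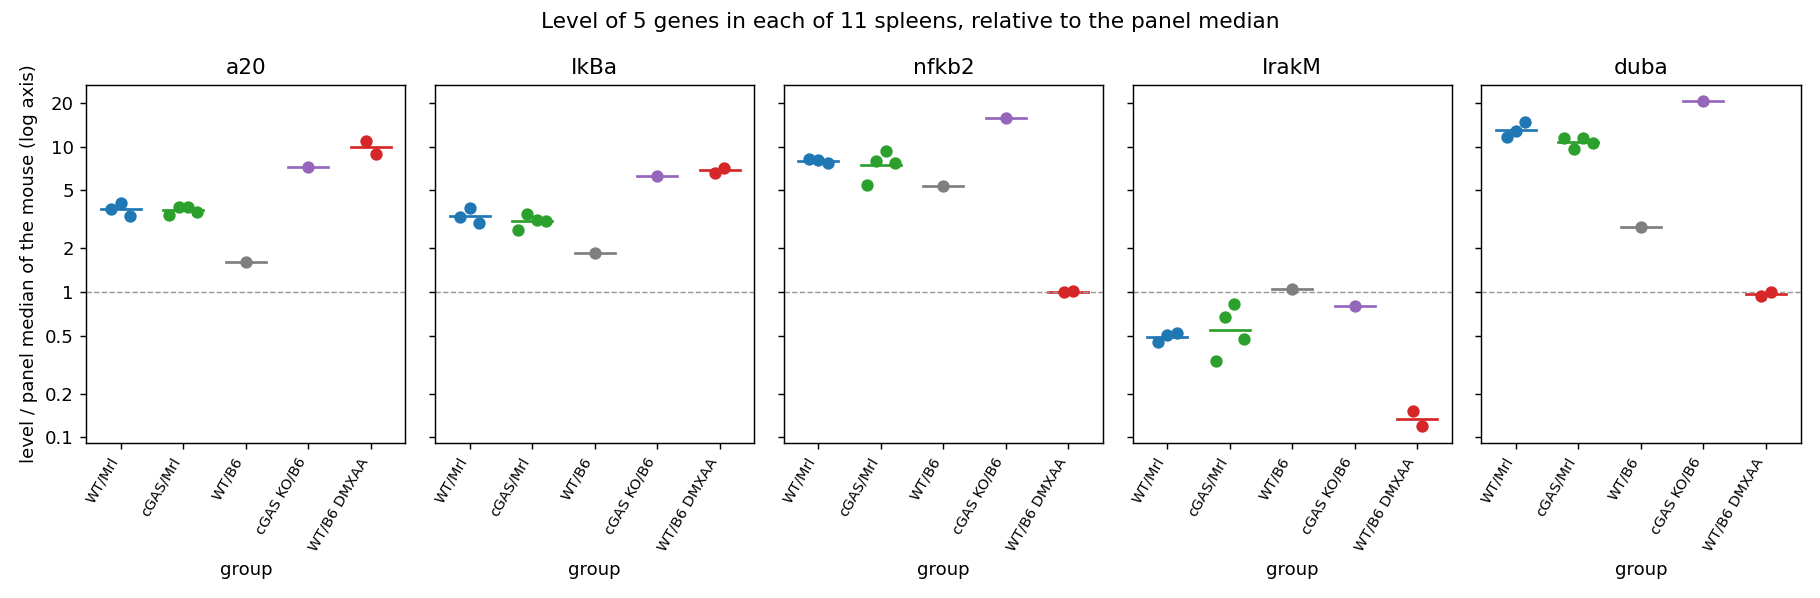
Level of each gene divided by the panel median of the same mouse (vertical log axis) by group (horizontal axis), with a point per mouse, a line at the geometric mean of the group and a dashed line at the panel median. a20 and IkBa are highest in the DMXAA mice, up to 10.99 and 7.17, while nfkb2 and duba are near 1 there.

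The spread within each Mrl genotype also differed by gene, and not alike in both. In the 3 WT/Mrl mice the SD of the centred log2 value, the log2 count minus the panel median of the mouse, was 0.15 for a20, 0.17 for IkBa, 0.05 for nfkb2, 0.11 for IrakM and 0.17 for duba, against a panel median of 0.17. With a WT/Mrl mouse left out at a time, this SD ran from 0.09 to 0.21 for a20 and from 0.08 to 0.24 for IkBa. It ran from 0.02 to 0.07 for nfkb2, 0.04 to 0.15 for IrakM and 0.11 to 0.24 for duba. In the 4 cGAS/Mrl mice the SD was 0.09 for a20, 0.15 for IkBa, 0.33 for nfkb2, 0.56 for IrakM and 0.12 for duba. The panel median there was 0.25. The spread of nfkb2 in the cGAS/Mrl mice rests on mouse 1, without which it was 0.15, and that of IrakM fell to 0.40, against a panel median of 0.18. Over the panel that mouse stood apart from the other cGAS/Mrl mice, with a chi-square of 11.8 to 19.9 times its degrees of freedom against 3.66 to 7.997 for the other pairs. cGAS/Mrl mouse 1 was the lowest of the 7 for nfkb2, IrakM and IkBa.

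The cGAS/Mrl and WT/Mrl mice were compared to ask whether loss of cGAS alters spleen expression in lupus-prone mice. With limma and adjustment over the panel, 0 of the 5 genes passed the threshold, and 0% of the 93 genes did (background 0). At an unadjusted p under 0.05 there were 0 of the 5 and 1 of the 93, and voom also called 0. An exact Mann-Whitney test cannot reach 0.05 with 3 against 4 mice, so its count of 0 was fixed in advance. The difference, cGAS/Mrl minus WT/Mrl on the centred log2 scale, was -0.02 (SE 0.13) for a20, -0.11 (SE 0.14) for IkBa, -0.10 (SE 0.18) for nfkb2 and 0.14 (SE 0.28) for IrakM. The sign for a20 turns under other scalings, and those for IkBa and nfkb2 turn when genes with a mean count under 20 are left out. duba had the largest difference of the 5, -0.27 (SE 0.14, 95% interval -0.58 to 0.04, adjusted p = 0.997 from limma), with lower values in 4 of 4 cGAS/Mrl mice on this scale. It was 3 of 4 with median-of-ratios scaling and 0 of 4 with uncentred counts, and the difference was -0.13 without genes under 20 counts. Leaving out a mouse at a time it ran from -0.35 without WT/Mrl mouse 1 (unadjusted p = 0.0470) to -0.18 without WT/Mrl mouse 3 (unadjusted p = 0.278). The unadjusted p was 0.0821 in the main fit and 0.0341 with trend and robust eBayes, and no adjusted p passed. On the main scale the exact two-sided Mann-Whitney p of duba was 0.0571, the smallest that 3 against 4 mice allow, and 3 of the 93 genes reached it. Nothing in the labels says more of the mice than their numbers, and the p-values measure the spread between these mice.

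The DMXAA mice were set against the uninjected WT/B6 mouse with no test, since that side has 1 mouse. A gene is called here when the sides do not overlap and their means differ at least 2-fold. a20 was 6.20-fold and IkBa 3.78-fold higher relative to the panel median, so that 2 of the 5 were called higher, where 33.3% of the panel was. nfkb2 was 5.11-fold, IrakM 7.68-fold and duba 2.80-fold lower, which turns to higher for all of them without centring, so that 3 of the 5 were called lower, where 49.5% of the panel was. These shares are near the background. Without centring the median panel gene was itself higher by 3.94 on the log2 scale, and a20 (7.50) and IkBa (6.79) stood above that shift while nfkb2 (2.52), IrakM (1.93) and duba (3.38) stood below it. Centring on the median fixes what counts as higher or lower. As a share of all counts of the mouse, a20 was 1.16% and 0.893% in the DMXAA mice and 0.941% in the WT/B6 mouse. IkBa was 0.695% and 0.722% in the DMXAA mice and 1.08% in the WT/B6 mouse, so it was lower on that scale. With both uninjected B6 mice as the control the same number of the 5 genes was called in each direction. The panel split was then 30 higher and 44 lower. On the log2 scale a20 was at 1.56, IkBa at 1.04, nfkb2 at -3.14, IrakM at -2.76 and duba at -2.92 with this control. Against the WT/B6 mouse alone they were at 2.63, 1.92, -2.35, -2.94 and -1.48. Without centring the panel split was 74 higher and 2 lower on counts and 93 and 0 on the signal, against 31 and 46. With median-of-ratios scaling it was 35 higher and 33 lower, and duba, at -0.94, was no longer called. In bulk tissue, fewer cells of a type and less RNA per cell cannot be told apart.

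The DMXAA mice were also set against the 7 Mrl mice, which have more counts than the WT/B6 mouse but are of another strain. These comparisons share the DMXAA mice. a20 was 2.70-fold and IkBa 2.17-fold higher, which made 2 of the 5, where 31.2% of the panel was called higher. nfkb2 was 7.60-fold, duba 11.9-fold and IrakM 3.86-fold lower, which made 3 of the 5, where 47.3% of the panel was called lower, and IrakM alone turned in direction without centring. The share of the 5 genes was again near that of the panel. The uncentred counts differed less for the lower genes, 3.03-fold lower for duba and 1.93-fold lower for nfkb2, with 1.02-fold for IrakM, while a20 was 10.6-fold and IkBa 8.56-fold higher. As a share of all counts of the mouse, a20 was 1.18% to 1.41% and IkBa 0.972% to 1.31% in the Mrl mice. Both ranges lie above the shares in the DMXAA mice, 1.16% and 0.893% for a20 and 0.695% and 0.722% for IkBa. Leaving out genes with a mean count under 20 took IkBa to 0.997 on the log2 scale, just under the 2-fold line. With median-of-ratios scaling the panel split was 33 higher and 33 lower, against 29 and 44, and without centring it was 48 and 14 on counts and 57 and 5 on the signal.

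Mrl mice were set against uninjected B6 mice to describe the lupus-prone background. 0 of the 5 genes were called higher, where 10.8% of the panel was, and 0 were called lower, where 23.7% was. The uninjected B6 side is a WT/B6 mouse and a cGAS KO/B6 mouse that lie on either side of the Mrl mice for a20, IkBa, nfkb2 and duba. Without the cGAS KO/B6 mouse, a20 (1.20) and duba (2.09) were called higher on the log2 scale, with 21 panel genes higher and 24 lower. Without the WT/B6 mouse 0 were called, with a20 at -0.95, IkBa at -0.96, nfkb2 at -0.9997 and duba at -0.78, and 10 panel genes were higher and 26 lower. With WT mice only, a20 (1.21) and duba (2.24) were higher and IrakM (-1.07) was lower, with 20 panel genes higher and 25 lower. With median-of-ratios scaling the panel split was 12 higher and 15 lower, against 10 and 22. Without centring all 5 genes were called higher, at 2.64 for a20, 2.44 for IkBa, 2.30 for nfkb2, 1.71 for IrakM and 3.17 for duba on uncentred counts, as were 74 panel genes, with 0 lower.

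The lone cGAS KO/B6 mouse was above the lone WT/B6 mouse for 4 of the 5 genes, where 23.7% of the panel was called higher, and 0 were called lower, where 11.8% was. The difference was 7.32-fold for duba, 4.43-fold for a20, 3.37-fold for IkBa and 2.97-fold for nfkb2. Since the 5 were chosen with these values known, nothing is read from their count. IrakM was 1.29-fold lower, which turned to higher without centring. Each side is 1 mouse with few counts, so that genotype and mouse cannot be told apart. With median-of-ratios scaling the panel split was 12 higher and 21 lower, against 22 and 11, and the same number of the 5 was called. Without centring it was 45 and 2 on counts and 81 and 0 on the signal.

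**Figure D2:**
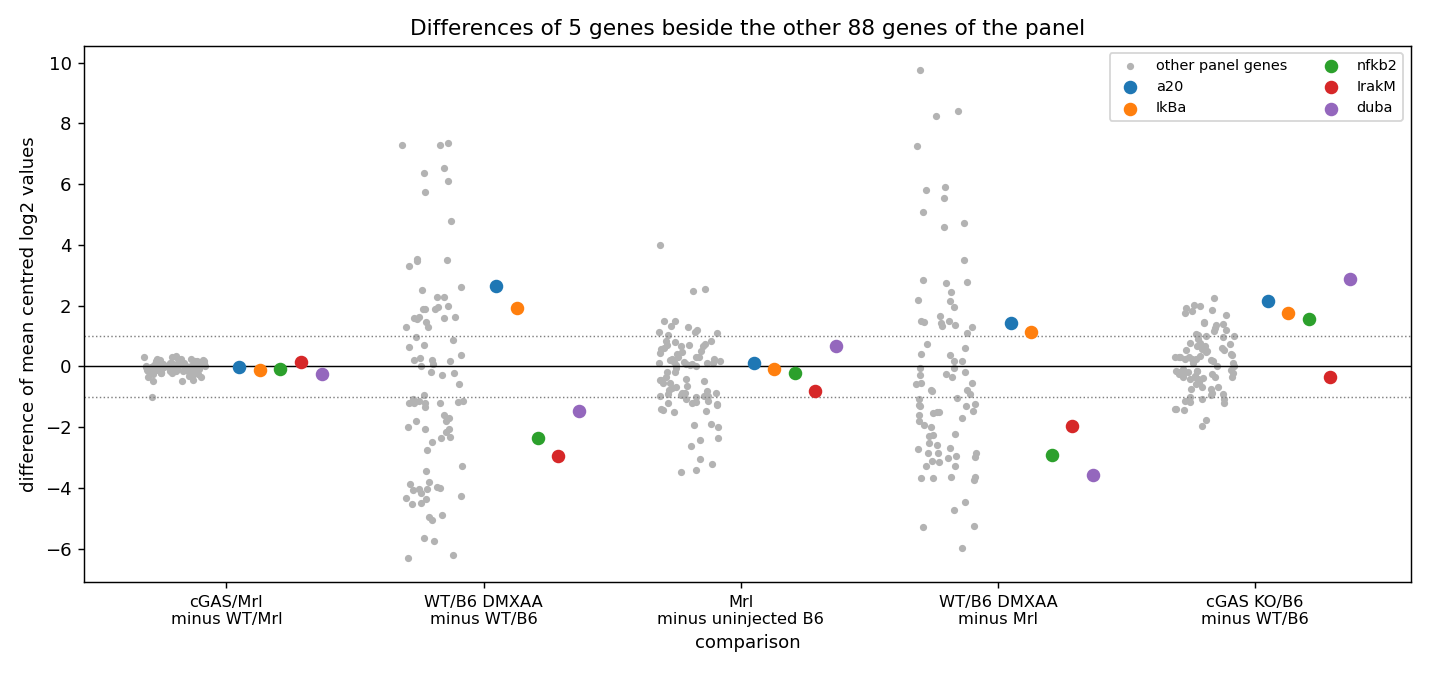
Difference of mean centred log2 values (vertical axis) in each of 5 comparisons (horizontal axis) for the 5 genes in color and the other panel genes in grey, with dotted lines at 2-fold. a20 and IkBa lie above 0 and nfkb2, IrakM and duba below 0 in both comparisons of DMXAA mice, where, without centring, nfkb2, IrakM and duba turn to higher against WT/B6 and IrakM against Mrl, and all 5 lie near 0 between the Mrl genotypes.

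Ratios of counts within a mouse need neither the factor nor the centring. The ratio of a20 to IkBa was 1.15, 1.08 and 1.11 in the WT/Mrl mice, 1.26, 1.12, 1.23 and 1.15 in the cGAS/Mrl mice, 0.872 in the WT/B6 mouse, 1.15 in the cGAS KO/B6 mouse, and 1.66 and 1.24 in the DMXAA mice. It varied 1.91-fold over 11 mice. This ratio was among the values known when the genes were chosen, so its narrow range is a description only. The exact (Clopper-Pearson) 95% interval of the WT/B6 ratio, 0.534 to 1.42, covers counting error only and includes the Mrl ratios. The DMXAA mice differed from each other more than the Mrl mice did, with intervals of 1.60 to 1.73 and 1.19 to 1.29.

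The ratio of a20 to duba moved far more. It was 0.322, 0.317 and 0.226 in the WT/Mrl mice, 0.292, 0.395, 0.336 and 0.337 in the cGAS/Mrl mice, 0.576 in the WT/B6 mouse and 0.352 in the cGAS KO/B6 mouse. In the DMXAA mice it was 11.6 and 8.81. The DMXAA mean was 32.2-fold that of the Mrl mice and 17.6-fold that of the WT/B6 mouse, whose interval was 0.366 to 0.894. The ratio shows that the genes changed unequally, and not which of them moved. The ratio of nfkb2 to duba ran from 0.472 to 1.90 over all 11 mice, a 4.02-fold range. In the 9 mice without DMXAA it also varied 4.02-fold, more than the 2.55-fold of a20 to duba.

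**Figure D3:**
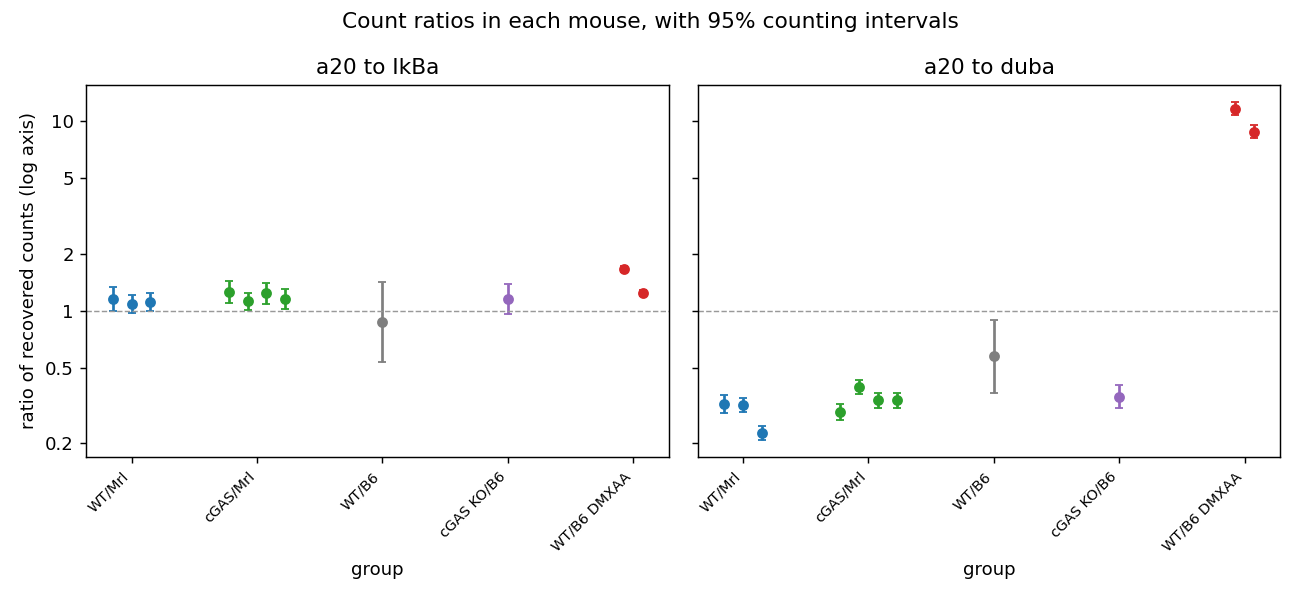
Ratio of recovered counts of a20 to IkBa and of a20 to duba (vertical log axis) in each mouse by group (horizontal axis), with exact 95% counting intervals and a dashed line at 1. The ratio of a20 to IkBa stays between 0.872 and 1.66, and that of a20 to duba reaches 8.81 and 11.6 in the DMXAA mice only.

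Likeness to other genes was measured as the root mean square difference of the 5 group means, each profile minus its own mean, over 82 genes. The WT/B6 and cGAS KO/B6 means rest on 1 mouse each. In these mice the counts were 2 and 23 for cox2, 6 and 21 for nlrc4 and 12 and 57 for cd80, so a few counts move their profiles. IkBa was nearest to a20 (0.23), which repeats values known when the genes were chosen, and cd40, a costimulatory receptor, followed (0.51). cox2, the inducible prostaglandin synthase, was next nearest to IkBa (0.42). The nearest to nfkb2 were nlrc4, an inflammasome gene (0.26), and unc93b, which escorts Toll-like receptors to endosomes (0.29). Il-1a, a cytokine (0.37), and Irf5, a transcription factor (0.42), were nearest to IrakM, and cd80, a costimulatory ligand (0.47), and nfkb2 (0.58) to duba.

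Other genes of the pathway were taken from lists. The numbers called in these lists are on the centred scale and were not computed without centring. Over the panel, 31.2% of genes were higher and 47.3% lower in DMXAA than in Mrl mice, 33.3% and 49.5% against WT/B6, 10.8% and 23.7% in Mrl against uninjected B6 mice, and 23.7% and 11.8% in cGAS KO/B6 against WT/B6. nfkb1, which encodes p105 and p50 and is the only other subunit on the panel, was lower in DMXAA than in Mrl mice (-1.78) and than in the WT/B6 mouse (-1.19) on the centred log2 scale. Its recovered counts were 1107 and 1039 in the DMXAA mice, within the 556 to 1248 of the Mrl mice. They were 83 in the WT/B6 mouse, so that direction turns to higher without centring. Of 6 other feedback regulators, 2 were higher and 3 lower in DMXAA than in Mrl mice, 2 and 2 against WT/B6, 2 and 2 in Mrl against uninjected B6 mice, and 2 and 0 in cGAS KO/B6 against WT/B6. socs1, a brake on cytokine signaling, was higher in DMXAA than in Mrl mice (2.44), and nlrc5 (-1.93) and tgfb1 (-1.31) were lower, while socs3 (0.59) was not called. The recovered counts of tgfb1 were 3694 and 3516 in the DMXAA mice, above the 1490 to 2924 of the Mrl mice. Those of nlrc5 were 1271 and 993, within the 562 to 1471 of the Mrl mice. Against WT/B6 socs3 was called lower (-1.08), and nlrc5 (0.18) and tgfb1 (0.86) were not called. In DMXAA against Mrl mice the list's median was -0.36, against -0.80 for the panel.

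Of 12 sensors and adaptors, 1 was higher and 6 were lower in DMXAA than in Mrl mice, near the panel's 47.3% lower, with a median of -1.40 against -0.80 for the panel. unc93b (-2.29), md2, a partner of TLR4 (-2.01), and tlr1, a receptor for bacterial lipopeptides (-5.30), were lower, and myd88, the adaptor of most Toll-like receptors, was at -0.05. The recovered counts of unc93b were 2473 and 2262 in the DMXAA mice, within the 1930 to 4013 of the Mrl mice. Those of md2, 297 and 273, were also within the Mrl range of 195 to 372. Those of tlr1, 66 and 57, were below the 367 to 956 of the Mrl mice. Against WT/B6 the counts were 1 and 7, in Mrl against uninjected B6 mice 0 and 0, and in cGAS KO/B6 against WT/B6 2 and 2.

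Of 17 inflammatory genes that NF-kB drives, 7 were higher and 6 lower in DMXAA than in Mrl mice, with a median of 0.16 against -0.80 for the panel, which had 31.2% higher and 47.3% lower. ccl5, a chemokine (1.47), and cd40 (1.41) were higher, and Il-1b, a cytokine (63.8-fold), and cd86 (-1.47) lower. The recovered counts of cd86 were 1176 and 790 in the DMXAA mice, against 406 to 962 in the Mrl mice. The numbers called higher and lower were 8 and 6 against WT/B6, 2 and 7 in Mrl against uninjected B6 mice, and 4 and 2 in cGAS KO/B6 against WT/B6. Of 17 interferon-stimulated genes, 9 were higher and 4 lower in DMXAA than in Mrl mice, with a median of 1.30 against -0.80 for the panel, which had 31.2% higher and 47.3% lower. Ifit1 (8.40), Ifit2 (5.80), cxcl10 (5.08) and viperin (4.73), chosen after their values were seen, were higher. Among those named for their high level, cxcl9 (-2.24) and Ifi47 (-1.06) were lower than in Mrl mice, and mndal (-0.36) was not called. Against WT/B6, however, cxcl9 (1.88) and Ifi47 (1.57) were called higher, so their direction depends on the control. The recovered counts of Ifi47 were 5588 and 4694 in the DMXAA mice, above the 1619 to 3505 of the Mrl mice. Those of cxcl9 were 2026 and 1647, within the 1236 to 2717 of the Mrl mice. The numbers called higher and lower were 10 and 1 against WT/B6, 4 and 0 in Mrl against uninjected B6 mice, and 6 and 1 in cGAS KO/B6 against WT/B6. Between cGAS/Mrl and WT/Mrl mice 0 genes of these lists were called with limma.

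Promoters are shown because nfkb2 differed from a20 and IkBa in the DMXAA mice. In the other 9 mice the ratio of IkBa to nfkb2 varied 1.46-fold, next to 1.44-fold for a20 to IkBa. The ratio of a20 to nfkb2 varied more in these mice, 2.04-fold. RefSeq promoters of build GRCm38.p6, from 250 bases before to 50 after the start, were found for all 5 genes, 4 paired by symbol or synonym and IkBa through its gene name Nfkbia. They were searched on both strands for the 10-letter kB consensus. A match was found for 3 of the 5 genes, a20, IkBa and nfkb2, and in 0 promoters of IrakM and duba. By promoter it was 5 of 10, since 1 of the a20 promoters had none, and overlapping promoters of nfkb2 share a match. Of all 27025 genes 9.55% had a match, and of the other panel genes 23.3% (14 of 60), which is the closer comparison. By promoter the shares were 8.46% of 32851 and 18.9% (14 of 74). The pairing by name took cox2 for the mitochondrial COX2, which has no promoter here, and with cox2 as Ptgs2 the panel shares were 23.0% (14 of 61) and 18.7% (14 of 75). Matches in the promoters of a20 (chr10:19015361-19015660, minus strand), IkBa (chr12:55492598-55492897, minus strand) and nfkb2 (chr19:46304487-46304786, plus strand) are in capitals. 2 matches of nfkb2 overlap and form the longer run. A match is a description of the letters. Relative to the panel median, nfkb2, with matches, stood lowest in the DMXAA mice, where a20 and IkBa stood highest. Without centring, nfkb2 was 5.72-fold higher in the DMXAA mice than in the WT/B6 mouse and 1.93-fold lower than in the Mrl mice.
a20: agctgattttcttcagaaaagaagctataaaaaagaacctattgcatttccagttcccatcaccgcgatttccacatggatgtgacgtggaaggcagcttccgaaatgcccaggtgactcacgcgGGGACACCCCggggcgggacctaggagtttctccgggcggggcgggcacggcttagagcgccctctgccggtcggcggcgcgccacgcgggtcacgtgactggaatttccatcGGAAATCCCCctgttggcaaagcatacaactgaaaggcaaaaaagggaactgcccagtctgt
IkBa: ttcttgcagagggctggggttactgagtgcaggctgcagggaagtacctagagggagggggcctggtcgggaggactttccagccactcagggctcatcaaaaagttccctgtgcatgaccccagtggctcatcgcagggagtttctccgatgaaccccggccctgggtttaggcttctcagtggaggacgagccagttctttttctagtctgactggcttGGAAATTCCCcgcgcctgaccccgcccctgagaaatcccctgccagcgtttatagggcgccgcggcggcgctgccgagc
nfkb2: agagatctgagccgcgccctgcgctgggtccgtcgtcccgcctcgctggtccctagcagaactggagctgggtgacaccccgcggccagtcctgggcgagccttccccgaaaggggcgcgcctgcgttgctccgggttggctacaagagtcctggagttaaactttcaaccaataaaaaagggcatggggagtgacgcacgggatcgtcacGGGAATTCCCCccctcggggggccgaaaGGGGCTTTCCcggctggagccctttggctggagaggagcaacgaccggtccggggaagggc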

How the data were processed

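The deposited values are a linear signal, which the authors normalized to housekeeping genes with 1 factor per mouse. All 1023 values were whole multiples of that factor (tolerance 0.0001), and these whole numbers are the recovered counts. They were used as log2(count + 1) minus the panel median of the mouse, in place of log2(signal + 1), because 1 unit of signal is worth many counts in the WT/B6 mouse (factor 0.0823). The pseudocount of 1 lowers differences of genes with few counts. limma 3.58.1 (lmFit, eBayes, R 4.3.3), two-sided, compared 4 cGAS/Mrl with 3 WT/Mrl mice, with Benjamini-Hochberg adjustment over 93 genes and a threshold of 0.05. The other comparisons had no test. The members and lists were chosen with earlier results of these data known. Named genes are the 5 members, the 2 nearest to each, and the 4 of each list with the highest median level. Of these, 1 gene is not reported here. Ifit1, Ifit2, cxcl10, viperin, ccl4, tnfa, cxcl2 and Il6 were named outside this rule, after their values were seen. Every pair of mice in a group differed beyond sampling noise (chi-square 2.91 to 27.3 times its degrees of freedom). Housekeeping genes (0 on the panel) and negative controls were not analysed here. The share of kB matches over panel promoters covers the 60 other panel genes with a promoter in the table, without cox2, which was mispaired. Scripts ran under Python 3.11.15 with SciPy 1.17.1 and Matplotlib 3.10.9.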

Additional observations from a re-analysis of the deposited data

Results flagged for a closer look

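For duba, the contrast of cGAS genotypes ran in opposite directions in the Mrl and B6 mice. On the centred log2 scale every cGAS/Mrl mouse was below every WT/Mrl mouse, with a difference of -0.27, but the groups overlapped with median-of-ratios scaling and uncentred counts. The difference was -0.13 without genes under 20 counts and ran from -0.35 to -0.18 with a mouse left out at a time, and the cGAS KO/B6 mouse was above the WT/B6 mouse, with a difference of 2.87. Opposite signs in Mrl and B6 mice were not particular to duba. They were also found for a20 (-0.02 and 2.15), IkBa (-0.11 and 1.75), nfkb2 (-0.10 and 1.57) and IrakM (0.14 and -0.37). Some of these signs turned with the processing. The difference between the backgrounds was not tested, and the B6 side has 1 mouse per genotype.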

How the results depend on the processing

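In the comparison of cGAS/Mrl with WT/Mrl mice, 0 genes were called with limma under every alternative run. With the mouse number as a replicate block (cGAS/Mrl mouse 4 left out) 0 were called and duba was at -0.26, and same-numbered mice were not alike in every pair (correlations over genes -0.21, 0.25 and 0.08). The study calls the WT/Mrl mice littermates, but the labels give no litters, so a shared litter is not excluded. The planned negative binomial count test was not run, although whole counts were recovered, and voom, chosen after seeing the data, took its place. The small difference of a20 turned to 0.116 without genes under 20 counts, 0.0180 with median-of-ratios scaling, 0.0184 on the panel mean, 0.0570 for the uncentred signal, 0.0742 for uncentred counts, 0.0120 centred on genes outside the interferon and inflammatory lists and 0.0223 with voom. Without genes under 20 counts IkBa turned to 0.0231 and nfkb2 to 0.0371. Leaving out a mouse at a time gave -0.0975 to 0.0488 for a20, -0.190 to -0.0219 for IkBa and -0.207 to 0.0510 for nfkb2. It gave -0.349 to -0.177 for duba and -0.0578 to 0.368 for IrakM. The duba difference was -0.130 without genes under 20 counts. Uncentred counts and the centring on genes outside the lists were also chosen after seeing the data.

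Centring decided the most. For DMXAA against WT/B6, uncentred signal gave 5 genes called, all higher, as were 93 of the 93 panel genes, with nfkb2 at 6.68, IrakM at 5.66 and duba at 7.44, and uncentred counts gave 5 with 2.52, 1.93 and 3.38 (panel 74 higher, 2 lower). For DMXAA against Mrl, uncentred signal called 2 (panel 57 higher, 5 lower) and uncentred counts 3 (48 and 14), with IrakM at 0.683 and 0.0278. For Mrl against uninjected B6 both uncentred scales called 5 (panel 89 higher on the signal and 74 on counts, 0 lower), WT mice only called 3 (20 and 25), and leaving out a mouse at a time called 0 to 2, the 2 without the cGAS KO/B6 mouse (21 and 24). The cause was not tested. Leaving out a mouse at a time, the log2 ratio of a20 to IkBa ran from 0.50 to 0.93 for DMXAA against WT/B6, from 0.10 to 0.52 for DMXAA against Mrl and from 0.00861 to 0.409 for Mrl against uninjected B6, and that of a20 to duba from -0.88 to -0.17 for Mrl against uninjected B6. Of 39 alternative counts whose main count was above 0, 35 were within 1.5 times it with no called gene turned, 2 moved further and 2 had called genes turned, all 4 of them without centring. For a main count of 0 this measure says nothing. Of 395 alternative differences of single genes 44 turned in sign, 21 of them for Mrl against uninjected B6 and 13 for cGAS/Mrl against WT/Mrl. Of 74 alternative ratios 66 moved by less than the SD between Mrl mice. The 21 counts of the WT/B6 panel median limit every comparison with that mouse.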
